A study of Homo sapiens with 8 samples.

Results

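The response of embryoid bodies to ethanol was read from 4 arrays, of 8 in the series. Embryoid bodies are floating aggregates in which human embryonic stem cells differentiate into a mixture of early embryonic and extraembryonic cell types. The cells were labelled as the H9 line, an established embryonic stem cell line, and were grown in mTeSR, a defined stem cell medium. For 24 h they received either no ethanol (0 mM, arrays A and B) or 20 mM ethanol (arrays A and B). The other 4 arrays held undifferentiated cells of the same label at the same doses, again 2 per dose. The age of the aggregates is not given in the labels. The labels call the arrays duplicates and do not say that they came from separate cultures, so the p-values measure the spread between these samples, which may be technical. The comparison took in 19775 genes, those that at least 1 probe set names alone. Of these, 14072 were bright enough to be tested and 5703 were not.

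As background, ethanol is oxidised to acetaldehyde by alcohol dehydrogenases and then to acetate by aldehyde dehydrogenases, and these enzyme families also make retinoic acid, a signal that patterns the embryo. Embryoid bodies form cells of all germ layers, among them an endoderm resembling yolk sac and fetal liver, which secretes plasma proteins, and a mesenchyme that lays down collagen matrix. Changes in a mixed aggregate can reflect how many cells of a kind there are or how much of an RNA each cell holds, and bulk RNA cannot tell these apart.

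The array signals carried the marks of the labelled stage. AFP, the fetal counterpart of albumin, had signals of 6026 and 6166 in embryoid bodies without ethanol and of 162 and 166 in undifferentiated cells. PAX6, a neuroectoderm regulator, had 1738 and 1995 against 151 and 138, and COL3A1, a mesenchymal collagen, had 8710 and 9120 against 186 and 186. NANOG, a pluripotency factor, was still present at 4677 and 4571 against 8318 and 7943. PECAM1 of endothelium (138 and 117) and HBE1 of primitive blood (132 and 42.7) were dim. A check of each array against the cell line named in the labels found that 4 of 8 arrays, all of 1 of the 2 stages, did not match. The ethanol comparison in embryoid bodies sets arrays of 1 stage against each other, but the fitted spread below also draws on the undifferentiated arrays, so fits on the embryoid body arrays alone are given beside it. The stages themselves cannot be told apart from the line.

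The 2 doses of embryoid bodies differed in the lower part of the signal range. All arrays had been scaled to the same trimmed mean of 500, yet the median signal over probe sets was 85.1 on both arrays without ethanol and 102 on both with ethanol. Signals under 10 made up 14.2% and 15% of probe sets without ethanol and 11.3% and 11.9% with ethanol. When tested genes were ordered by brightness and divided into deciles, the median log2 change with ethanol went from 0.33 in the dimmest decile (median signal 81.3) to -0.10 in the brightest (median signal 6800). In the dimmest decile 43.5% of genes had both ethanol arrays above both arrays without ethanol, and 8.24% the reverse. In the brightest decile these shares were 14.5% and 57.7%. After cyclic loess, which removes differences that depend on brightness, the medians of these deciles were 0.01 and 0.01. Many list medians below are therefore given on both scales, and a median given without a scale is as deposited. The part of this shift in any single gene was not tested.

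**Figure D1:**
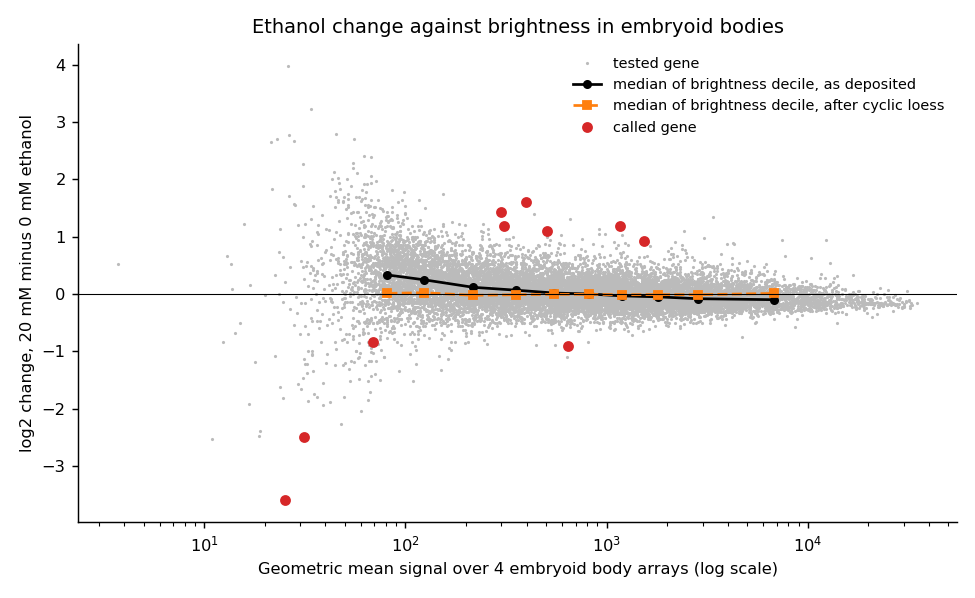
Log2 change with ethanol in embryoid bodies (20 mM minus 0 mM) against the geometric mean signal over the 4 embryoid body arrays, 1 grey point per tested gene (14072), with the 10 called genes in red. The black line joins the medians of brightness deciles as deposited, which run from 0.33 to -0.10, and the dashed orange line the same after cyclic loess, which stays near 0.

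Ethanol changed 10 genes past the threshold, 6 upward and 4 downward. The genes that rose were AHSG, LHX8, DELE1, MMP1, DNM3OS and ABCC10, and those that fell were LINC02525, CDX4, LINC01315 and CCL26. The test was limma over all 8 arrays with Benjamini-Hochberg adjustment over the 14072 tested genes, called at an adjusted p under 0.05. The calls upward were 0.0426% of tested genes and those downward 0.0284%. At an unadjusted p under 0.05 there were 3137 genes. Both ethanol arrays lay above both arrays without ethanol in 4138 genes (29.4%) and below them in 3959 (28.1%), so arrays that do not overlap are common in this comparison. All counts of list members without overlap given below are to be read beside these shares. Limma on the embryoid body arrays alone called 0 genes, with 3933 at an unadjusted p under 0.05 and a smallest adjusted p of 0.114.

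AHSG encodes fetuin-A, a glycoprotein secreted into plasma by the fetal liver. Its signal was 219 and 234 without ethanol and 676 and 708 with ethanol. Both ethanol arrays lay far above the others, and the undifferentiated arrays had only 50.1 to 63.1. The change was 3.05-fold (log2 1.61, SE 0.07, adjusted p = 0.00953), and its other probe set gave a log2 change of 1.81. LHX8, a LIM homeobox factor of the ventral forebrain, went from 191 and 174 to 479 and 501 (log2 1.43, SE 0.12, adjusted p = 0.0488). DNM3OS, a noncoding transcript of mesenchyme that hosts microRNAs, went from 331 and 363 to 759 and 724 (log2 1.10, SE 0.08, adjusted p = 0.0439), and its other probe set gave 0.91. All 3 genes had ethanol arrays that agreed closely with each other and lay well apart from the arrays without ethanol.

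MMP1, the interstitial collagenase, went from 214 and 195 to 490 and 437 (log2 1.18, SE 0.09, adjusted p = 0.0467). It was also the 1 gene called with ethanol in undifferentiated cells, where its signals were 2.88 and 3.09 without and 12.9 and 12.3 with ethanol, levels near the bottom of the range. DELE1, which relays mitochondrial stress to the integrated stress response, went from 759 and 776 to 1820 and 1698 (log2 1.20, SE 0.09, adjusted p = 0.0439). This rested on 1 of its 4 probe sets: the others gave log2 changes of -0.15, -0.07 and 0.55. ABCC10, an efflux transporter, went from 1122 and 1097 to 2042 and 2188 (log2 0.93, SE 0.07, adjusted p = 0.0439), and its other probe set gave 0.18. For these last 2 genes the probe sets did not show one common change.

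The genes that fell were mostly dim. LINC02525, a long noncoding RNA, had 83.2 and 93.3 without and 9.55 and 5.50 with ethanol (log2 -3.60, SE 0.27, adjusted p = 0.0439). CDX4, a caudal-type homeobox factor of the tail bud, had 85.1 and 64.6 without and 14.5 and 12.0 with ethanol (log2 -2.49, SE 0.22, adjusted p = 0.0488). Both started near the median signal of their arrays and ended far below it, so the size of their fold rests on the lowest signals. With a constant of 50 added before the logarithm, LINC02525 had a log2 change of -1.27 and CDX4 of -0.98. In the dimmest decile the median SD between duplicates was 0.23 on the log2 scale, against 0.02 without and 0.05 with ethanol in the brightest. The chemokine CCL26 had 93.3 and 91.2 without and 50.1 and 53.7 with ethanol (log2 -0.83, SE 0.07, adjusted p = 0.0488). It was the 1 called gene that was not called in the fit of embryoid body arrays with a brightness-dependent spread described below (adjusted p = 0.14). LINC01315, another noncoding RNA, was the brightest of the 4, at 912 and 851 without and 447 and 490 with ethanol (log2 -0.91, SE 0.08, adjusted p = 0.0488).

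**Figure D2:**
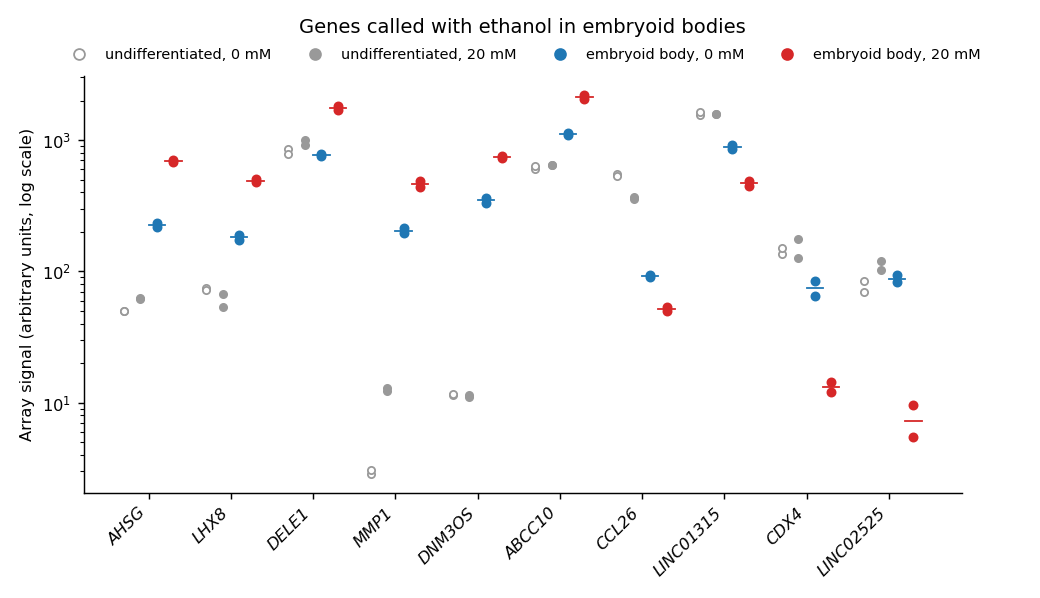
Array signals on a log scale of the 10 genes called with ethanol in embryoid bodies, 1 point per array, for undifferentiated cells (open and filled grey) and embryoid bodies (blue 0 mM, red 20 mM), with short lines at the geometric means. In every gene shown the 2 blue and the 2 red points do not overlap, for AHSG 219 and 234 against 676 and 708.

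Below the threshold, the genes with the next smallest p-values, of 15 taken in each direction, had adjusted p of 0.0549 to 0.0606 and are given by their values. PLAT, the tissue plasminogen activator, had 380 and 389 without and 692 and 708 with ethanol. IGFBP3, a carrier of insulin-like growth factors, had 631 and 603 without and 1288 and 1413 with ethanol, and its other probe set gave a log2 change of 0.88. DSC3, a desmosomal cadherin, had 132 and 132 without and 275 and 275 with ethanol. FOXRED2, an oxidoreductase of the endoplasmic reticulum, had 240 and 214 against 427 and 457, MPV17L 302 and 295 against 490 and 479, and SMIM30 603 and 575 against 912 and 933. Dimmer genes were SPRYD3 (100 and 91.2 against 204 and 182), LGALS14 (25.1 and 29.5 against 63.1 and 56.2) and CD84 (29.5 and 39.8 against 105 and 132). The other probe sets of CD84 gave log2 changes from -0.32 to 1.83. These 9 genes were taken only from genes without overlap between the doses, so the absence of overlap was set by the choice. Among embryoid body arrays CD84 lay above the array median only with ethanol. CXCL14 and COX3 were taken instead for the size of their change among bright genes. The chemokine CXCL14 had 617 and 759 without and 1445 and 1380 with ethanol (adjusted p = 0.0553). COX3, a mitochondrially encoded respiratory subunit, had 1995 and 2239 without and 4786 and 6026 with ethanol (adjusted p = 0.0606), on a probe set that can bind several transcripts. The probe sets of SMIM30 and MPV17L are of the same type.

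In the other direction AHR, the dioxin receptor, had 407 and 447 without and 269 and 251 with ethanol (adjusted p = 0.0583). RAB38, a small GTPase of pigment organelles, had 912 and 955 without and 447 and 427 with ethanol (adjusted p = 0.0592). TUNAR, a noncoding RNA of pluripotent and neural cells, had 537 and 513 without and 302 and 339 with ethanol (adjusted p = 0.0592). The genes named in this paragraph were taken only from genes lower in both ethanol arrays, so the absence of overlap was set by the choice. NUDT1, which removes oxidised nucleotides, had 794 and 724 without and 380 and 437 with ethanol (adjusted p = 0.0606). FEN1, the flap endonuclease of DNA replication, had 6457 and 5754 without and 3548 and 3715 with ethanol (log2 -0.75, adjusted p = 0.0606), while its other probe set gave -0.15. IMP3 had 2399 and 2344 against 1660 and 1585, and DHRS4-AS1 1122 and 1023 against 617 and 589, though the mean over its probe sets gave a log2 change of -0.25. Among dimmer genes were PLAC9 (251 and 229 against 102 and 117) and TWF2-DT (129 and 132 against 67.6 and 72.4). The probe set of PLAC9 can bind several transcripts, and its other, dim probe set gave a log2 change of 0.25. C19orf73 (43.7 and 49.0 against 15.5 and 11.2) and CGREF1 (60.3 and 32.4 against 8.71 and 7.24) lay below the array medians at both doses. Taken for the size of the change among bright genes were also SYNGR3 (1549 and 1906 against 955 and 1148, adjusted p = 0.0899), FBXO17 (427 and 389 against 269 and 224, adjusted p = 0.271) and CACNG4 (646 and 575 against 191 and 562, adjusted p = 0.333). The 2 dim other probe sets of CACNG4 gave 1.49 and 1.78. Among 9789 genes with a mean signal of at least 300 in embryoid bodies, non-overlapping differences of at least 1 on the log2 scale were found in 14 genes upward and 1 downward.

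Liver plasma proteins were mostly higher with ethanol. Of 25 genes listed, 23 had a probe set and 16 were tested: 1, AHSG, rose past the threshold, 0 fell past it, and 15 of 16 had positive values. In 13 of 16 both ethanol arrays lay above both others, and in 1 below, against 29.4% and 28.1% of all tested genes. The median log2 change was 0.76 as deposited and 0.60 after cyclic loess, beside 0.02 over all tested genes. Over all 23 genes with a probe set, tested or not, the median was 0.86 and 22 were positive. The summed signal of the tested members was 17920 and 18246 without and 30273 and 29526 with ethanol.

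The fibrinogen chains, which form the clot, were higher with ethanol in both arrays. FGB had 1660 and 1660 without and 3467 and 3631 with ethanol, FGA had 891 and 776 against 1622 and 1778, and FGG had 891 and 933 against 1549 and 1445. The 3 chains had log2 changes of 1.10, 1.03 and 0.71. Their undifferentiated signals, 17.4 to 24.5 for FGB without ethanol, were near the bottom of the range.

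The carriers and inhibitors of plasma showed the same order of arrays. TF, the iron carrier transferrin, had 257 and 282 without and 741 and 676 with ethanol (log2 1.40). SERPINA1, the elastase inhibitor alpha-1-antitrypsin, had 417 and 417 without and 1072 and 1000 with ethanol (log2 1.31). AGT, the precursor of angiotensin, had 115 and 126 without and 263 and 302 with ethanol (log2 1.23). In each the ethanol arrays were at least 2 times the arrays without ethanol. F2, prothrombin, had 186 and 162 against 331 and 302 (log2 0.86), and RBP4, the retinol carrier, had 832 and 851 against 1479 and 1445 (log2 0.80). The already abundant AFP went from 6026 and 6166 to 9772 and 9550 (log2 0.66) and TTR, a carrier of thyroid hormone and of RBP4, from 5012 and 5248 to 7762 and 7080 (log2 0.53).

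The smallest differences were in HPX (log2 0.32), HP (0.25), AMBP (0.23) and A1BG (0.20), of which AMBP and A1BG overlapped between the doses. C3, a complement component made by many cells, went the other way, from 97.7 and 155 to 56.2 and 20.9 (log2 -1.84, SE 0.47, adjusted p = 0.123). ALB, albumin, was too dim to be tested, at 43.7 and 40.7 without and 81.3 and 75.9 with ethanol.

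**Figure D3:**
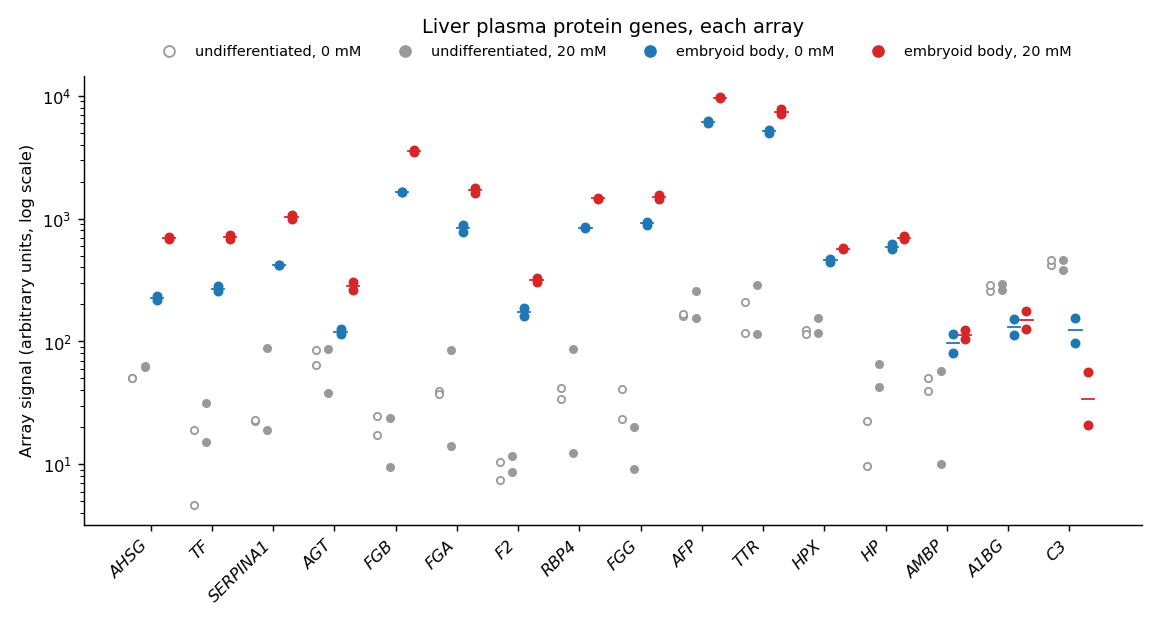
Array signals on a log scale of the 16 tested liver plasma protein genes, ordered by log2 change, 1 point per array in undifferentiated cells (grey) and embryoid bodies (blue 0 mM, red 20 mM), with short lines at the geometric means of the embryoid body groups. The red points lie above the blue ones without overlap in 13 genes and below them in C3, and the grey points of most genes scatter widely at low signals.

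The plasma protein genes differed from the called genes in the spread that the fit assigned to them. Their standard errors in the fit of 8 arrays ran from 0.07 to 0.84, with a median of 0.42, beside 0.12 over all tested genes. That fit takes 1 spread per gene from all 4 groups, and in undifferentiated cells these genes lay at low signals with discordant arrays, as FGB at 24.0 and 9.55 with ethanol. FGB thus had an SE of 0.42 and an adjusted p of 0.209, and SERPINA1 an SE of 0.66 and an adjusted p of 0.298. In a fit of the 4 embryoid body arrays alone, with a spread that depends on brightness and is robust to outlying genes, their standard errors had a median of 0.10. This fit was chosen after the data were seen, and its counts are given below for some lists only. It called 11 of the 16 higher and 1, C3, lower, where it called 7.51% of all tested genes higher and 9.12% lower. FGB had an adjusted p of 4.48e-05 there, SERPINA1 0.000231 and AFP 0.000231. The fit on the same 4 arrays without that dependence, chosen earlier, called none of the 16, since its smallest adjusted p over all genes was 0.114.

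Regulators of endoderm were read beside its secreted products, with no test of a difference between the lists. Of 11 tested endoderm transcription factors, 0 passed the threshold, 2 were higher and 3 lower without overlap, beside 29.4% and 28.1% of all tested genes. The median log2 change was -0.03 as deposited and -0.12 after cyclic loess. FOXA2 had 1072 and 1122 without and 1000 and 1148 with ethanol, and SOX17 had 1072 and 1047 against 955 and 1122, so both overlapped. GATA6 had 1995 and 2042 against 2399 and 2754 (log2 0.35), the largest value of the list. FOXA3 (log2 -0.28), ONECUT2 (-0.56) and NR5A2 (-0.30) had negative values. The other probe sets of ONECUT2 gave log2 changes from -0.71 to 2.74 and those of NR5A2 from -0.27 to 1.01, the positive ones on dim signals. The other, dim probe set of GATA6 gave -0.33. Of the 11 factors 5 were positive and 6 negative. The summed signal of the 11 factors was 6056 and 6155 without and 6106 and 6814 with ethanol, which also overlapped. The part of a changed number of endoderm cells in the plasma protein values was not tested.

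Among 11 tested apolipoproteins and genes of lipid secretion, 0 passed the threshold, 7 were higher and 3 lower without overlap, and the median was 0.33 as deposited, 0.22 without 0 mM array A and 0.15 after cyclic loess. APOB, the scaffold of lipoprotein particles, had 3311 and 3467 without and 5370 and 5129 with ethanol, and MTTP, which loads it with lipid, had 501 and 525 against 741 and 759. APOA1 was nearly level, at 11482 and 10965 against 11749 and 11220.

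As background, HNF1 is a factor of liver and endoderm that binds near the start of many plasma protein genes. The arrays measure no binding, so the promoters are printed only to show how they compare in sequence. The 150 bases before the start are from RefSeq (GRCh38.p14), 5′ to 3′ on the strand of the gene. Capitals mark GTTAAT or its reverse complement ATTAAC, the half-site of HNF1, searched on both strands in the 250 bases before the start. AHSG is shown as the called gene, and the other 4 were picked because they hold the motif, not for the size of their change.
AHSG (chr3:186612910-186613059, plus strand): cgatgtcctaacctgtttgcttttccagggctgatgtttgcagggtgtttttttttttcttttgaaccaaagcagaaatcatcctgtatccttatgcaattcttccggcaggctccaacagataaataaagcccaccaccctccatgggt
FGB (chr4:154562830-154562979, plus strand): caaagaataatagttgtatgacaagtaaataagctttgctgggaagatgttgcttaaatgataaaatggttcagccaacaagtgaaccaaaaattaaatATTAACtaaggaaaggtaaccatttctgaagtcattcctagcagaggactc
FGA (chr4:154590743-154590892, minus strand): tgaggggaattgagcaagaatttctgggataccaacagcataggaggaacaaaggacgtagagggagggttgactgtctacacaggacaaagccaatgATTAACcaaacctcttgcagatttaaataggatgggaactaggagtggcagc
SERPINA1 (chr14:94388603-94388752, minus strand): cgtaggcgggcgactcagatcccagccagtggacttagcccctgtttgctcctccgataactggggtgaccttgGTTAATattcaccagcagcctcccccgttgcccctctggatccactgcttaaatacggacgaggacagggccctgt
AFP (chr4:73436071-73436220, plus strand): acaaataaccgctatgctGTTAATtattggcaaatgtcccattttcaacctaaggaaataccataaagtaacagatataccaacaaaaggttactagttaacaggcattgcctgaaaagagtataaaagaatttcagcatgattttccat

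Of the 16 tested plasma protein genes 13 had a promoter window, and 5 of these (FGB, FGA, SERPINA1, AFP and F2) held the motif in at least 1 window, or 38.5%. Among all tested genes with a window 604 of 11321 held it (5.34%), and among 24 collagen genes 0 did. The match lies 51 bases before the start in FGB, 52 in FGA, 76 in SERPINA1, 132 in AFP and 34 in F2. The windows of AHSG (log2 1.61), TF (1.40) and AGT (1.23), 3 of the 4 largest positive changes of the tested list, have no such letters. The match describes letters in a window and was not tied to the ethanol values.

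Of the 52 lists, collagens had the largest share of members with both ethanol arrays above both others. Of 39 listed, 34 were tested: 0 passed the threshold in the fit of 8 arrays, 33 had positive values, 29 were higher without overlap and 0 lower, against 29.4% and 28.1% of all tested genes. Of the 34, COL15A1 (66.1 and 83.2 against 209 and 209) passed the brightness filter on its ethanol arrays and on no others. Members that passed on these and 1 other array were not counted. The median log2 change was 0.29 as deposited and 0.34 after cyclic loess. It was 0.02 after median centring, which set the median of all tested genes to -0.25. The median signal of the list was 1111, and the decile with a median signal of 1189 had a median change of -0.03 as deposited. Cyclic loess thus had little to remove at that brightness. The fit of embryoid body arrays with a brightness-dependent spread, chosen after the data were seen, called 14 of 34 higher and 0 lower, where it called 7.51% and 9.12% of all tested genes. The summed signal of the tested members was 104199 and 102948 without and 131987 and 129032 with ethanol.

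The fibrillar collagens, which bear tension in connective tissue, had values of different size. COL3A1 had 8710 and 9120 without and 17378 and 16982 with ethanol (log2 0.95). COL1A1 had 10471 and 10965 against 15849 and 15488 (log2 0.55), while its partner chain COL1A2 had 15488 and 14454 against 15849 and 15488 (log2 0.07) and overlapped. COL5A1 had 1096 and 1175 against 1660 and 1622 (log2 0.53, adjusted p = 0.0665). Among other types, COL15A1 had the largest value of the list (log2 1.49). COL6A3, a chain of beaded microfibrils, had 2188 and 2138 against 4365 and 4169 (log2 0.98). COL14A1, which coats fibrils, had 195 and 195 against 339 and 309 (adjusted p = 0.0583). Thus COL1A1, COL3A1, COL5A1, COL6A3 and COL14A1 had ethanol arrays above the others without overlap, while COL1A2 overlapped. The difference between the chains of type I collagen was not tested. COL9A3 of cartilage was the 1 tested collagen with a negative value, from 891 and 692 to 550 and 692.

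**Figure D4:**
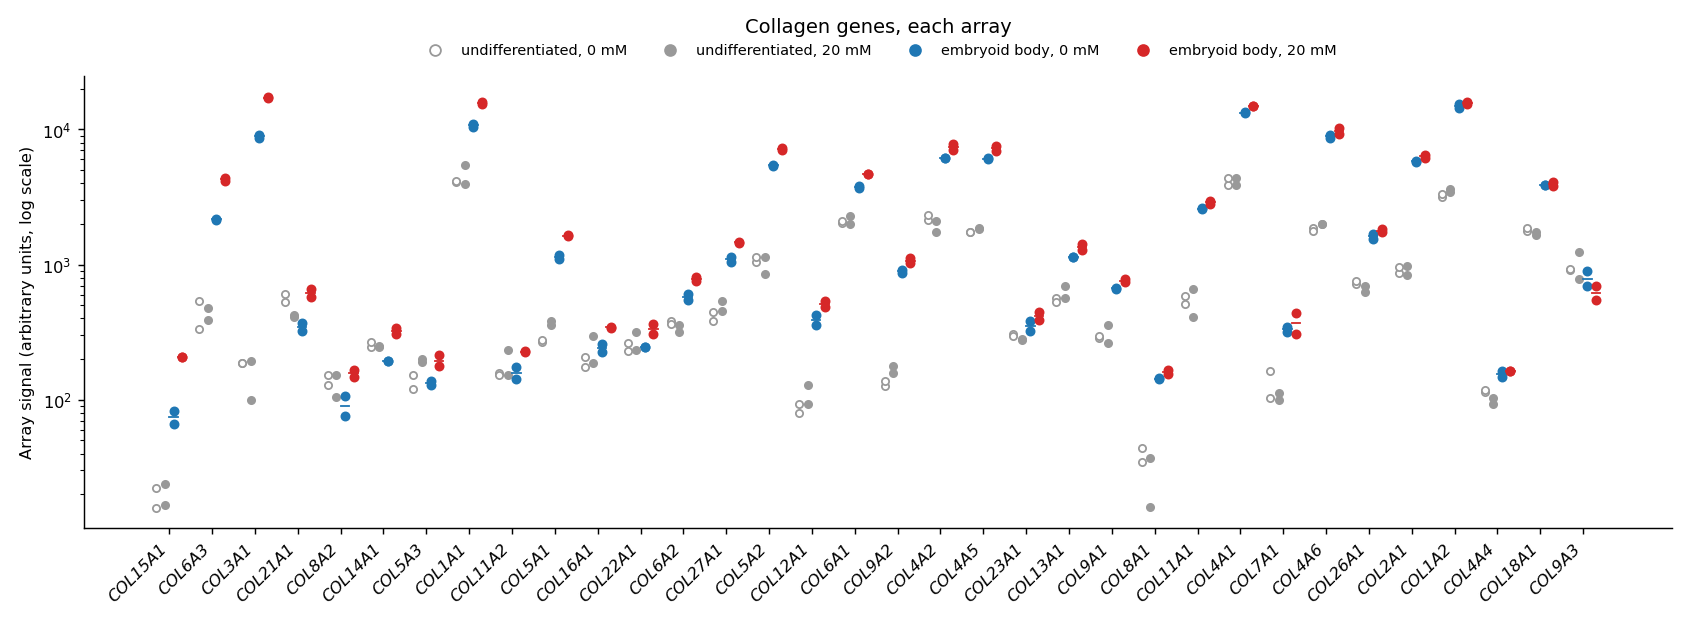
Array signals on a log scale of the 34 tested collagen genes, ordered by log2 change, 1 point per array in undifferentiated cells (grey) and embryoid bodies (blue 0 mM, red 20 mM), with short lines at the geometric means of the embryoid body groups. The red points lie above the blue ones without overlap in 29 genes and below them in 0, as COL3A1 at 17378 and 16982 against 8710 and 9120, and COL9A3 at the right end has the 1 negative value.

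Of 32 tested mesenchymal matrix proteins, 0 passed the threshold, 20 were higher and 2 lower without overlap, and the median was 0.42 as deposited and 0.23 after cyclic loess. The fit of embryoid body arrays with a brightness-dependent spread, chosen after the data were seen, called 13 of 32 higher and 1 lower. Over all tested genes it called 7.51% higher and 9.12% lower. NID1, which links laminin to collagen IV, had 1738 and 1778 without and 3020 and 3388 with ethanol (log2 0.86, adjusted p = 0.0553), and its other probe sets gave 0.25 and 0.30. TGFBI, an adhesion protein induced by TGF beta, had 3020 and 2818 against 4786 and 4677 (adjusted p = 0.0592). POSTN, periostin, had 3162 and 3090 against 5888 and 5754 (log2 0.90), and LUM, the proteoglycan lumican, 6026 and 4786 against 10000 and 10715 (log2 0.95). These 4 genes had ethanol arrays above the others without overlap. FN1, fibronectin, had 31623 and 30200 against 28840 and 27542 (log2 -0.13).

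Genes that process collagen had a median of 0.10 as deposited and 0.12 after cyclic loess, with 10 of 17 higher without overlap and 0 lower. LOX, which crosslinks collagen, had 182 and 138 without and 347 and 398 with ethanol (log2 1.23), and PCOLCE, which aids procollagen cleavage, had 617 and 631 against 977 and 933 (log2 0.61). Of 17 tested metalloproteinases and their inhibitors, MMP1 rose past the threshold, 10 were higher and 2 lower without overlap. The range ran from -1.23 (MMP24, 34.7 and 67.6 against 23.4 and 18.2) to 1.64 (MMP17, 17.8 and 95.5 against 112 and 148). MMP7 passed the brightness filter on its ethanol arrays and on no others. Among embryoid body arrays MMP17 lay above the array median on both ethanol arrays and on 1 array without ethanol. MMP2, a gelatinase, had 2455 and 2512 against 3311 and 3311 (log2 0.42). Laminins and integrins had 12 of 22 higher and 1 lower without overlap, and a median of 0.22 as deposited and 0.13 after cyclic loess. Among them ITGA5, a fibronectin receptor chain, had 603 and 617 against 724 and 813.

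Mesoderm regulators showed values in the same direction. Of 18 tested, DNM3OS rose past the threshold, 10 were higher and 0 lower without overlap, and the median was 0.34 as deposited and 0.21 after cyclic loess. The fit of embryoid body arrays with a brightness-dependent spread, chosen after the data were seen, called 8 of 18 higher and 0 lower. Over all tested genes it called 7.51% higher and 9.12% lower. TWIST1, a factor of mesenchyme, had 891 and 977 without and 1549 and 1549 with ethanol (log2 0.73). PDGFRA, the receptor of mesenchymal progenitors, had 2138 and 2291 against 3548 and 3162 (log2 0.60, adjusted p = 0.107). HAND1, of heart and extraembryonic mesoderm, had 427 and 389 against 631 and 646 (log2 0.65, adjusted p = 0.0899). The summed signal of the 18 regulators was 13528 and 14227 without and 19228 and 19080 with ethanol, beside the higher collagen values. The part of a changed number of mesenchymal cells in those values was not tested.

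Muscle genes, by contrast, had lower values. Of 15 tested cardiac and smooth muscle genes, 0 passed the threshold, 2 were higher and 9 lower without overlap, and the median was -0.20 as deposited and -0.36 after cyclic loess. TAGLN, an actin-binding protein of smooth muscle, had 1698 and 1479 without and 1148 and 1148 with ethanol (log2 -0.47). TNNC1, cardiac troponin C, had 871 and 955 against 617 and 589 (log2 -0.60).

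HOX genes, which mark position along the body axis, were dim. Of 39 listed, 28 had a probe set and 10 were tested, 1 of them because only its ethanol arrays passed the brightness filter. Members that passed on the ethanol arrays and 1 other array were not counted. In these 10, 0 passed the threshold, 6 were higher and 0 lower without overlap, and the median was 0.95 as deposited and 0.66 after cyclic loess. Leaving out 1 embryoid body array gave medians from 0.59 (without 20 mM array B) to 1.25 (without 20 mM array A). Over all 28 with a probe set 25 were positive, with a median of 0.81. HOXB3 had 195 and 195 without and 355 and 339 with ethanol (log2 0.83), and HOXC6 had 58.9 and 74.1 against 209 and 204 (log2 1.64). HOXC4 had 83.2 and 46.8 against 138 and 148 (log2 1.20) and HOXB9 91.2 and 91.2 against 126 and 234 (log2 0.91). HOXB7 (log2 1.33) and HOXC11 (log2 0.98) were higher too, whereas HOXB2, HOXB4, HOXB5 and HOXC5 overlapped. Most of these signals lay in the dimmest deciles, where the median of all genes was also above 0.

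The homeobox genes of the ventral forebrain, which specify its inhibitory and cholinergic neurons, had 1 of 9 tested members past the threshold, LHX8. In 7 of 9 the ethanol arrays were higher without overlap and in 0 lower, with a median of 0.71 as deposited and 0.46 after cyclic loess. LHX6 had 331 and 398 without and 646 and 692 with ethanol (log2 0.88), and DLX1 had 562 and 646 against 1000 and 1023 (log2 0.75). GAD2, an enzyme of GABA synthesis in the same list, had 89.1 and 77.6 against 112 and 166. The 22 neuroectoderm factors had a median of 0.07, with PAX6 at 1738 and 1995 against 2138 and 2188. The 18 tested neuronal genes had 4 higher and 9 lower without overlap and a median of -0.17. NEFL, a neurofilament chain, had 1738 and 1950 against 1412 and 1380 (log2 -0.40). ELAVL4, a neuronal RNA-binding protein, went the other way, with 195 and 151 against 324 and 347. Its other probe sets gave log2 changes of -0.13 and, on dim signals, 0.25 and -1.49.

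Pluripotency genes had lower values with ethanol. Of 25 tested, 0 passed the threshold, 2 were higher and 16 lower without overlap, and the median was -0.18 as deposited and -0.10 after cyclic loess. The fit of embryoid body arrays with a brightness-dependent spread, chosen after the data were seen, called 10 of 25 lower and 0 higher. Over all tested genes it called 9.12% lower and 7.51% higher. PRDM14, a repressor that guards pluripotency, had 1349 and 1349 without and 851 and 891 with ethanol (log2 -0.63, adjusted p = 0.0822). NANOG had 4677 and 4571 against 3715 and 3715 (log2 -0.32, adjusted p = 0.0988), and USP44, a deubiquitinase, had 1820 and 1906 against 1445 and 1413 (log2 -0.38). Their ethanol arrays lay below the others without overlap. The median signal of the list was 1603, and 64% of its tested members were lower without overlap. In the deciles with median signals of 1189 and 1799, 36.3% and 42.0% of all tested genes were lower without overlap. In the brightest decile, with a median signal of 6800, the share was 57.7%. The part of brightness in the values of these genes was not tested. Simple epithelium had 3 higher and 14 lower of 22 tested, with a median of -0.14 as deposited and -0.07 after cyclic loess.

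**Figure D5:**
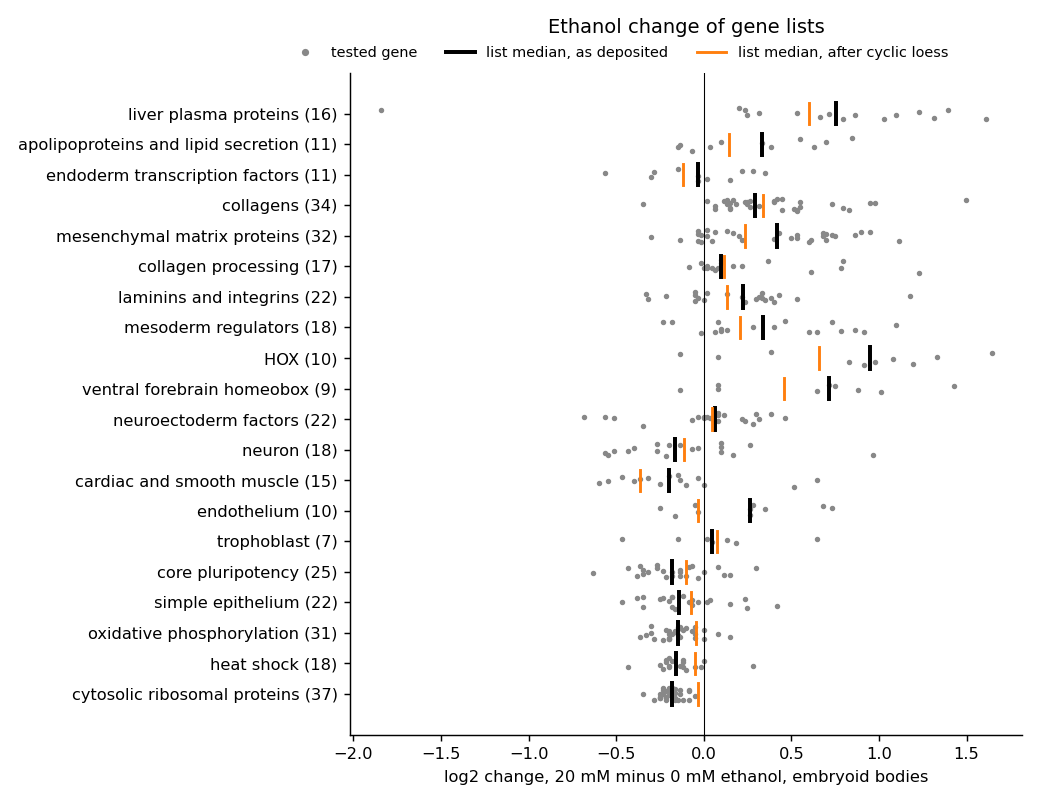
Log2 change with ethanol in embryoid bodies of the tested members of 20 gene lists, 1 grey point per gene with the number of genes in brackets, and list medians as deposited (black) and after cyclic loess (orange). Plasma proteins (0.76 and 0.60), collagens (0.29 and 0.34), HOX (0.95 and 0.66) and ventral forebrain genes (0.71 and 0.46) lie to the right on both scales, while the median of ribosomal proteins moves from -0.18 to -0.03.

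Of 37 cytosolic ribosomal proteins, 35 were lower and 0 higher without overlap, and the median was -0.18 as deposited and -0.03 after cyclic loess. For oxidative phosphorylation 21 of 31 were lower and 2 higher, and the median went from -0.15 to -0.05. Heat shock genes had 13 of 18 lower and 1 higher, and a median of -0.16 that went to -0.05. In all 3 lists 0 genes passed the threshold, and each median was nearer to 0 after cyclic loess. The fit of embryoid body arrays with a brightness-dependent spread, chosen after the data were seen, called 20 of 37, 12 of 31 and 5 of 18 lower. It called 0, 0 and 1 higher, and of all tested genes 9.12% lower and 7.51% higher. Lower values without overlap were found in 57.7% of the brightest decile of all tested genes. Fatty acid synthesis had 7 of 13 higher and 3 lower, with a median of 0.08. HSPB1, a small chaperone, had 2188 and 2188 without and 1698 and 1549 with ethanol, and CHORDC1, a cochaperone, had 2754 and 2754 against 3236 and 3467. Antioxidant genes had 16 of 31 lower and 6 higher. TKT, transketolase of the pentose phosphate pathway, had 15849 and 17378 against 12303 and 11220 (log2 -0.50, adjusted p = 0.0794).

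Of 14 tested genes of ethanol and aldehyde breakdown, 0 passed the threshold, 3 were higher and 5 lower without overlap. Over all tested genes the shares were 29.4% and 28.1%. ADH5, the ubiquitous class III alcohol dehydrogenase, had 9120 and 8913 without and 7244 and 6607 with ethanol (log2 -0.38, SE 0.08, adjusted p = 0.10). ALDH2, the main mitochondrial acetaldehyde dehydrogenase, had 2630 and 2630 against 2630 and 2570 (log2 -0.02, SE 0.10). ALDH9A1 had 5012 and 4786 against 3981 and 3631 (log2 -0.37, SE 0.08, adjusted p = 0.0978). ALDH3B1 had the difference of largest size in this list, from 58.9 and 28.2 to 79.4 and 141 (log2 1.38, SE 0.49, adjusted p = 0.185), on dim and discordant arrays. Catalase (CAT) had 871 and 741 against 912 and 851 and overlapped. Among these enzymes the values thus went both ways.

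The retinoic acid list had 9 of 18 tested genes higher and 3 lower without overlap, 0 past the threshold, and a median of 0.21 as deposited and 0.17 after cyclic loess. RDH10, which oxidises retinol, had 912 and 1023 without and 1380 and 1413 with ethanol (log2 0.53, adjusted p = 0.0777), but the mean over its probe sets gave 0.07. Its other probe sets gave 0.40, 0.15 and, on mean signals of 4.73 and 2.69, -0.81. CRABP2, which carries retinoic acid to the nucleus, had 3548 and 3548 against 2455 and 2512 (log2 -0.51, adjusted p = 0.246). ALDH1A2, which makes retinoic acid, had 55.0 and 105 against 138 and 115, and CYP26A1, which degrades it, had 933 and 891 against 813 and 741. RXRA, a nuclear receptor partner, had 1445 and 1479 against 1906 and 1862, and its mean over probe sets gave 0. The list thus held members with values in both directions.

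Of the signalling pathways, WNT had 22 of 36 tested genes higher and 4 lower without overlap, and a median of 0.17 as deposited and 0.15 after cyclic loess. FZD1, a WNT receptor, had 1202 and 1318 without and 1905 and 2089 with ethanol (log2 0.66), and the ligand WNT5A had 1445 and 1660 against 2291 and 2951 (log2 0.75). TGFB2, a ligand, had 355 and 398 against 603 and 631 (log2 0.71), in a TGF beta and nodal list of 19 with a median of 0.03. GLI2, a hedgehog effector, had 437 and 525 against 851 and 724 (log2 0.71), with 0.08 and, on dim signals, 0.30 on its other probe sets. The median of the 15 hedgehog genes was -0.03. No gene of these lists passed the threshold. Notch had 5 of 21 higher and 4 lower, FGF 7 of 23 higher and 4 lower, and BMP 10 of 25 higher and 4 lower, with medians of 0.03, 0 and 0.07. Over all tested genes 29.4% were higher and 28.1% lower without overlap.

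Other lists held single members of note. Among 19 ABC transporters, ABCC10 rose past the threshold, and the cholesterol exporter ABCA1 had 1318 and 1906 without and 2884 and 3090 with ethanol (log2 0.91, adjusted p = 0.0916). Among 35 genes of DNA replication, CDT1, a licensing factor, had 646 and 977 against 1318 and 1698 (log2 0.91) and 0.22 on its other probe set, and the list median was -0.02. Of 17 genes of the insulin-like growth factor system, IGFBP3 and IGFBP7 (2951 and 3020 against 4169 and 4169) were higher without overlap. The other probe sets of IGFBP7 gave log2 changes of 0.12 and, on dim signals, 1.15. The list median was -0.10. Endothelium (10 tested), blood (6) and trophoblast (7) had 0 genes past the threshold and medians of 0.27, 0.29 and 0.05 as deposited, and -0.04, 0.10 and 0.07 after cyclic loess. The first pair rested on single arrays: without 0 mM array B the endothelium median was 0.09 and the blood median -0.02, and without 20 mM array A endothelium was 0.13 and without 20 mM array B blood was 0.50. TEK, an endothelial receptor, had 302 and 316 against 550 and 447.

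Whether the ethanol values of embryoid bodies differed from those of undifferentiated cells was tested by the difference of the 2 effects in the same fit. No gene was called (0%), with 1828 at an unadjusted p under 0.05 and a smallest adjusted p of 0.122. AHSG was higher in both stages, by a log2 of 1.61 in embryoid bodies and 0.32 in undifferentiated cells (difference 1.30, adjusted p = 0.122). LHX8 had 1.43 and -0.28 (difference 1.71, adjusted p = 0.122), and LINC02525 had -3.60 and 0.53 (adjusted p = 0.122). The ABCC10 values were 0.93 and 0.07 (adjusted p = 0.187). No ethanol effect is therefore called particular to embryoid bodies here.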

How the data were processed

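RNA was measured on Affymetrix arrays of 54675 probe sets. The authors deposited log10 array signals, rounded to 2 decimals, by the evidence of the values themselves: a trimmed mean of 500 on every array and values down to -1.46 have the form of scaled MAS 5 signals. The submitters' processing notes name RMA, with no version. The planned log2 scale was obtained by a constant factor. The platform annotation gave 41097 probe sets 1 gene, 1801 several and 11777 none. The probe set with the highest mean stood for a gene, and genes above the array median on at least 2 of 8 arrays were tested. Limma 3.58.1 in R 4.3.3 (lmFit, eBayes) fitted 4 group means, with 4 residual and 1.81 prior degrees of freedom, and was tested on simulated data. SE is that of the fitted log2 change.

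The members and lists were chosen with earlier results of these data known. Genes named were taken from all called genes, the 15 smallest p-values and the 10 largest changes at a signal of at least 300 in each direction without overlap, up to 4 of smallest p per list, tested HOX and plasma protein genes, enzymes of ethanol and retinoid breakdown, and cell type markers. ALB, COL1A2, COL6A3, COL9A3, FN1, MMP17 and MMP24 were chosen after their values were seen. The number of arrays, 2 per group, limits the precision. Alternatives changed the filter, probe set rule, scaling, added constant, variance model and arrays.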

Additional observations from a re-analysis of the deposited data

How the results depend on the processing

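The number of genes called depended on the processing. Against 10 genes in the fit as reported, 2 were called with no filter, 477 with the filter at the 75th percentile, 1 with the mean of the gene's probe sets, 0 without probe sets of types x and s, 62 after quantile normalization, 3880 after median centring, 177 with a constant of 50 added before the logarithm, 959 with a trended and robust variance, and 0 on the embryoid body arrays alone. An alternative chosen after seeing the data, embryoid body arrays with a trended and robust variance, called 2341. Leaving out 1 array called 0 to 4 genes. It was 0 without any 1 of the 4 undifferentiated arrays, 2 and 4 without embryoid body 0 mM arrays A and B, and 2 and 1 without the 20 mM arrays A and B. Fewer arrays leave fewer degrees of freedom. Median centring set the median change of all tested genes to -0.25 and split its calls into 172 higher and 3708 lower, against 6 and 4 as reported. The trended fit gave 390 higher and 569 lower, the 75th percentile filter 237 and 240, the constant of 50 gave 138 and 39, and quantile normalization 35 and 27. Cyclic loess called 8 genes, 3 higher and 5 lower. In that limma fit LHX8, DNM3OS, MMP1 and LINC01315 were not called (adjusted p of 0.0529 to 0.0614). The cause of these shifts was not tested.

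With the replicate letter as a replicate block, 0 genes were called in embryoid bodies. The letters did not pair the arrays, whose deviations correlated by -0.0254 to 0.0494. Genes whose effect differed between the stages numbered 0 as reported, 13 with the 75th percentile filter, 31 with the trended variance, and 0 to 10 when 1 array was left out (9 without undifferentiated 0 mM array A, 10 without 20 mM array B). DELE1 turned to -0.15 without probe sets of types x and s. AHSG was called in 9 of 19 alternatives, ABCC10 in 7 of 19, DELE1 in 7 of 20, LINC02525 in 7 of 19, CCL26 and LINC01315 in 6 of 20, CDX4 in 6 of 19, DNM3OS in 5 of 20, LHX8 in 5 of 19 and MMP1 in 4 of 19. Plasma protein medians stayed between 0.49 (median centring) and 0.79 over the scalings and single arrays left out. The collagen median was 0.02 after median centring, and mesenchymal matrix 0.15.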
